A study of Homo sapiens with 6 samples.

Results

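The epithelial-mesenchymal transition (EMT) genes described here are 10 markers and regulators of that program, namely CDH1, ESRP1, CDH2, VIM, FN1, SNAI1, SNAI2, ZEB1, ZEB2 and TWIST1. They were taken by symbol from a deposited table of 33007 genes, in which each of the 10 symbols occurred on 1 line. All 10 passed the filter on low counts that left 18390 genes for testing.

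EMT is the process by which epithelial cells loosen their junctions and take on a motile, matrix-producing state. E-cadherin and epithelial splicing factors are lost in its course, N-cadherin, vimentin and fibronectin are gained, and transcription factors of the SNAI, ZEB and TWIST families repress the epithelial genes by binding E-box sequences near their start sites. In liver cancer the program is known for its link to invasion and metastasis, and many carcinoma cells carry epithelial and mesenchymal markers side by side.

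RNA-seq was performed on LM3 cells, an established human hepatocellular carcinoma (HCC) cell line, in 3 control samples and 3 samples with ZNF706 knockdown. ZNF706 encodes a small zinc finger protein, and the study asked how the transcriptome differs when it is depleted. All 6 samples carry the genotype label WT, the controls are vector control cells, and stable knockdown in this study used pLKO.1 short hairpin RNA lentivirus with puromycin selection. Which hairpin the sequenced cells carried, whether they were a pool or a clone, and whether the replicates were separate cultures are not given in the sources used here, so p-values measure only the spread between these samples. The total counts were 62684076, 64713764 and 63054445 in control replicates 1 to 3 and 68548419, 65861994 and 69057423 in knockdown replicates 1 to 3. Counts were expressed as CPM, each library's reads per gene relative to its total with TMM scaling. The quasi-likelihood test of edgeR was applied to the groups, p-values were adjusted by Benjamini and Hochberg's method over all 18390 genes, and genes with an adjusted p below 0.05 were called.

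ZNF706 itself (ENSG00000120963) was at 51.9, 55.1 and 54.7 CPM in the controls and at 33.5, 30.8 and 32.8 CPM in the knockdown samples. Every knockdown sample was thus below every control sample, and the log2 fold change was -0.73 (SE 0.0505, adjusted p = 3.7e-05 by edgeR's quasi-likelihood test). The transcript was lowered and not abolished.

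Markers of the labelled cell type were uneven. The keratins of simple epithelia KRT8 and KRT18 were abundant, with 93159 to 112218 and 57140 to 62916 counts per sample. ALB, encoding albumin, had 189, 899 and 882 counts in the controls and 587, 635 and 138 in the knockdown samples, and AFP, encoding alpha-fetoprotein, had 71, 230 and 252 against 189, 156 and 31. On the length-scaled FPKM scale (fragments scaled to gene length and library size) ALB and AFP averaged 2.17 and 0.65, against 196 and 266 for KRT8 and KRT18. ALB and AFP were lowest in control replicate 1 and knockdown replicate 3. The same 2 libraries held nearly all counts of COL1A2 (117 and 119, at most 8 elsewhere) and of CDH11 (104 and 83, with 0 elsewhere), which encode a fibrillar collagen chain and a mesenchymal cadherin. Other markers did not set these 2 libraries apart together. The fibroblast markers COL3A1 and LUM had 336 and 163 counts in control replicate 1 but 0 and 18 in knockdown replicate 3. The hepatocyte marker SERPINA1 was highest among the knockdown samples in replicate 3, at 138 counts. Over 14125 genes, the deviations of the 2 libraries from their group means had a correlation of -0.05. For the EMT genes, the lists of other EMT genes and the genes of those lists given with an SE, calls that change without these 2 libraries are given below. Calls without them were not examined for the other marker lists and their genes. The part of these 2 libraries in the results beyond these values was not tested.

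Of the 10 EMT genes, FN1 and CDH2 rose and ZEB2 fell in ZNF706 knockdown cells, and the other 7 did not pass the test. FN1 was 1.57-fold and CDH2 1.41-fold higher, and ZEB2 was 0.75 of its control level. The 3 calls are 30% of the genes, where 22.8% of all genes tested were called, 10.4% higher and 12.4% lower. With genes limited to a mean count of at least 50, which all 10 reached, 3 of the 10 were called, against 31.5% of all genes. By the thresholds used in the study (unadjusted p below 0.05, log2 fold change of 0.3 or more in either direction), CDH1 was added and 4 of 10 genes passed, 3 of them higher, against 15.5% of all genes (9.61% higher and 5.88% lower). The control and knockdown values did not overlap for 5 of the 10 genes, against 39.4% of all genes. The median log2 fold change of the 10 was 0.15, and that of all genes tested was 0.01. When the 2 libraries low in ALB were left out, a choice made after seeing the data, 3 genes were again called, but these were CDH1, CDH2 and FN1, all higher. In that fit 2820 of 18642 genes tested, or 15.1%, were called.

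**Figure D1:**
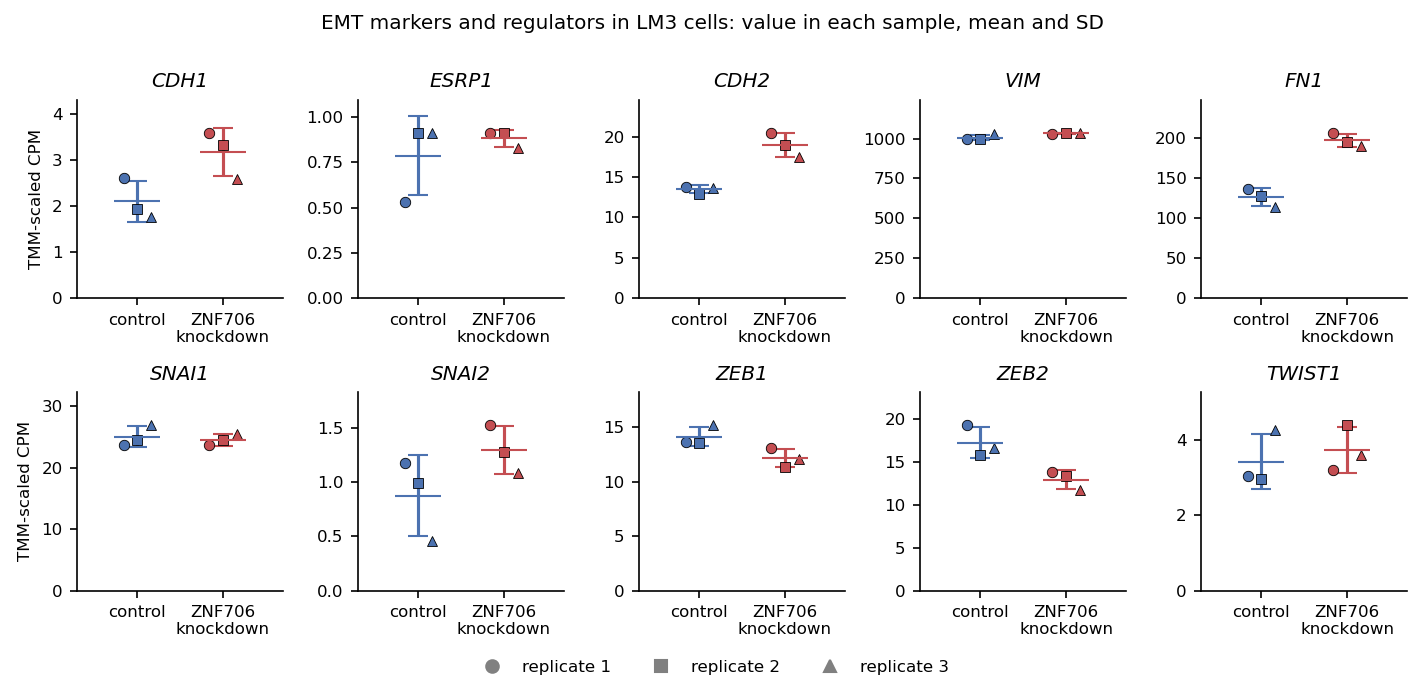
TMM-scaled CPM (linear axes from 0) of the 10 EMT genes in each control (blue) and ZNF706 knockdown (red) sample, with the symbol giving the replicate and the bars the mean ± SD (n = 3). FN1 and CDH2 lie higher and ZEB2 and ZEB1 lower in every knockdown sample, VIM lies higher by a margin that did not pass the test, and the groups overlap for the other 5 genes.

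Among the epithelial markers, CDH1 (ENSG00000039068, GRCh38 chr16:68737292-68835537, plus strand) encodes E-cadherin, the adhesion molecule of epithelial adherens junctions, and its loss is the classical sign of EMT. It had 162, 123 and 108 counts in the controls and 252, 224 and 181 in the knockdown samples, which gave 2.62, 1.94 and 1.76 CPM against 3.59, 3.34 and 2.59 CPM. The groups overlapped, since control replicate 1 lay just above knockdown replicate 3. The log2 fold change was 0.59 (SE 0.211, 95% interval 0.12 to 1.07), with an unadjusted p of 0.019 and an adjusted p of 0.072 by edgeR's quasi-likelihood test, so CDH1 was not called. It was called without control replicate 1 (log2 fold change 0.78, adjusted p = 0.038) and without both libraries low in ALB (0.91, adjusted p = 0.027), and not when any other single sample was left out. An exact permutation test of the 6 values gave p = 0.2, where the smallest p that 3 against 3 samples allow is 0.1.

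ESRP1 (ENSG00000104413, chr8:94641074-94707466, plus strand) encodes an RNA-binding protein that directs the epithelial splicing pattern of many transcripts. It was the least abundant of the 10 genes, with 33, 58 and 56 counts in the controls and 64, 61 and 58 in the knockdown samples. Control replicate 1 was low, at 0.533 CPM, and the other 5 samples lay between 0.829 and 0.913 CPM. The log2 fold change was 0.17 (SE 0.315, 95% interval -0.54 to 0.87, adjusted p = 0.76 by edgeR's quasi-likelihood test), an interval too wide to place its direction. Without control replicate 1 it was -0.05.

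Among the mesenchymal markers, FN1 (ENSG00000115414, chr2:215360440-215436073, minus strand) encodes fibronectin, an extracellular matrix glycoprotein. It had 8457, 8112 and 7017 counts in the controls and 14521, 13124 and 13311 in the knockdown samples, which gave 137, 128 and 114 CPM against 207, 196 and 190.2 CPM. All knockdown samples were well above all controls, and the gap between the groups was larger than the range within either. FN1 had the largest log2 fold change of the 10 genes, 0.65 (SE 0.0614, 95% interval 0.51 to 0.78, adjusted p = 0.00014 by edgeR's quasi-likelihood test). It kept its call under each of the 15 alternative settings, between 0.58 and 0.74.

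CDH2 (ENSG00000170558, chr18:27932879-28177946, minus strand) encodes N-cadherin, which replaces E-cadherin in the classical cadherin switch. It had 856, 824 and 840 counts in the controls and 1436, 1272 and 1225 in the knockdown samples, which gave 13.8, 13.0 and 13.7 CPM against 20.5, 19.0 and 17.5 CPM. The controls were close together, and the lowest knockdown sample was above the highest of them. This gave a log2 fold change of 0.49 (SE 0.0861, 95% interval 0.30 to 0.69, adjusted p = 0.0031 by edgeR's quasi-likelihood test), and it was called under each of the 15 alternatives, between 0.33 and 0.57.

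VIM (ENSG00000026025, chr10:17228241-17237593, plus strand) encodes vimentin, the intermediate filament protein of mesenchymal cells. It was at 997, 996 and 1026 CPM in the controls and at 1029.5, 1036 and 1032.5 CPM in the knockdown samples. The knockdown samples were all slightly above the controls, but control replicate 3 came within a few CPM of them. On the log2 scale the fold change was 0.04 (SE 0.0261, 95% interval -0.02 to 0.10, adjusted p = 0.36 by edgeR's quasi-likelihood test), so any change larger than 0.10 on the log2 scale lies outside this interval. VIM was called only where counts were scaled by library size alone (0.09, adjusted p = 0.025) or FPKM values were used (0.09, adjusted p = 0.038 by limma-trend).

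E-cadherin and N-cadherin transcripts were both higher on average in the knockdown samples, and their proportion was therefore examined on the FPKM values. The CDH2 level was 3.78, 4.81 and 5.67 times that of CDH1 in the controls and 4.08, 4.10 and 4.89 times in the knockdown samples. The ratio was 4.76 ± 0.943 (SD, n = 3) against 4.36 ± 0.463 (SD, n = 3). The knockdown values lay inside the range of the controls, so a difference in the ratio of the cadherins was not seen beyond the spread between samples. CDH1 was at 0.24 to 0.52 FPKM, values deposited with 2 decimals, which limits the precision of this ratio. Its size depends on the gene length used, since counts divided by the exon length of GENCODE release 29 gave ratios of 6.60, 8.34 and 9.71 in the controls and 7.11, 7.08 and 8.44 in the knockdown samples, again inside the range of the controls.

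Among the transcription factors, ZEB2 (ENSG00000169554, chr2:144364364-144520400, minus strand) encodes a zinc finger and homeodomain repressor of CDH1. It had 1191, 1001 and 1021 counts in the controls and 964, 892 and 817 in the knockdown samples, which gave 19.2, 15.7 and 16.6 CPM against 13.7, 13.3 and 11.7 CPM. Control replicate 1 was the highest and knockdown replicate 3 the lowest, and the groups did not overlap. The log2 fold change was -0.41 (SE 0.104, 95% interval -0.65 to -0.18, adjusted p = 0.018 by edgeR's quasi-likelihood test). This call was lost without control replicate 1 (-0.33, adjusted p = 0.062), without knockdown replicate 2 (-0.44, adjusted p = 0.052) and without knockdown replicate 3 (-0.35, adjusted p = 0.058). Without both libraries low in ALB the log2 fold change was -0.26 (adjusted p = 0.13).

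ZEB1 (ENSG00000148516, chr10:31318495-31529813, plus strand), the paralog of ZEB2 with the same domain plan, had 846, 861 and 931 counts in the controls and 916, 760 and 845 in the knockdown samples. In CPM this was 13.7, 13.5 and 15.2 against 13.1, 11.3 and 12.1. The groups did not overlap, by a margin of less than 1 CPM. ZEB1 had a log2 fold change of -0.22 (SE 0.0935, 95% interval -0.43 to -0.01), with an unadjusted p of 0.044 and an adjusted p of 0.13 by edgeR's quasi-likelihood test, and no alternative called it.

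SNAI1 (ENSG00000124216, chr20:49982980-49988886, plus strand), encoding the zinc finger repressor Snail, was at 23.6, 24.5 and 26.9 CPM in the controls and at 23.6, 24.4 and 25.4 CPM in the knockdown samples. The ranges of the groups coincided at their lower end. The log2 fold change was -0.03 (SE 0.0727, 95% interval -0.19 to 0.13, adjusted p = 0.82 by edgeR's quasi-likelihood test), and its sign turned with the scaling, to 0.02 by library size alone. SNAI2 (ENSG00000019549, chr8:48917598-48921440, minus strand), encoding the related repressor Slug, had only 73, 63 and 28 counts in the controls and 107, 86 and 76 in the knockdown samples. Control replicate 3 was far below the others, and the groups overlapped. Its log2 fold change was 0.57 (SE 0.357, 95% interval -0.23 to 1.36, adjusted p = 0.30 by edgeR's quasi-likelihood test), an interval that also spans 0. TWIST1 (ENSG00000122691, chr7:19020991-19117118, minus strand), encoding a basic helix-loop-helix factor, was at 3.05, 2.96 and 4.27 CPM in the controls and at 3.21, 4.40 and 3.60 CPM in the knockdown samples. Each group held a high sample and the groups overlapped, with a log2 fold change of 0.12 (SE 0.193, 95% interval -0.31 to 0.56, adjusted p = 0.70 by edgeR's quasi-likelihood test).

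**Figure D2:**
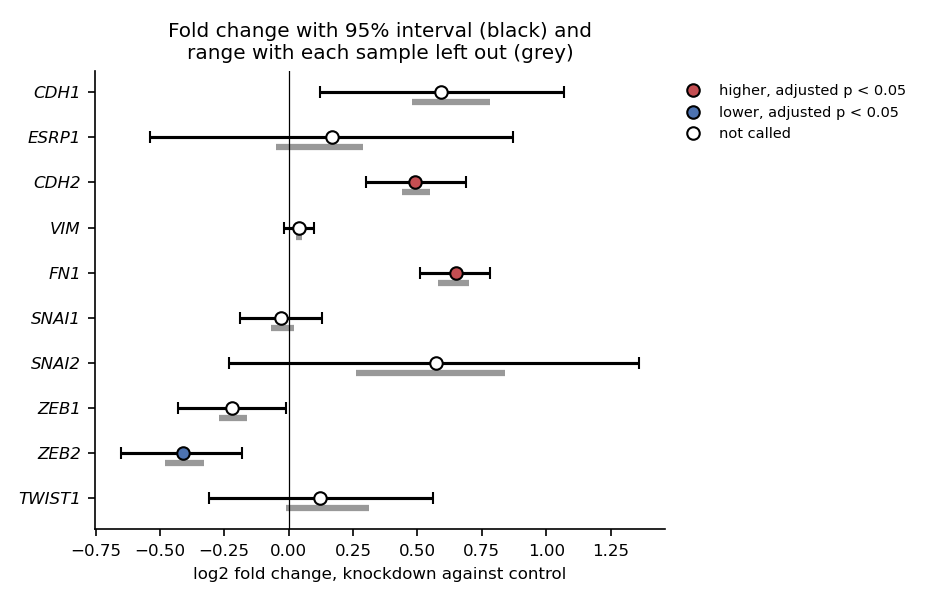
Log2 fold change of the 10 EMT genes, knockdown against control (circles, with black bars for the 95% interval and grey bars for the range over fits that leave a sample out). FN1 (0.65) and CDH2 (0.49) are called higher and ZEB2 (-0.41) lower at an adjusted p below 0.05, and the open circles did not pass.

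The promoters of the genes that moved, and of ZEB1 for comparison with ZEB2, are shown because the EMT factors act through E-boxes. RefSeq windows on GRCh38.p14, from 250 bases before to 50 bases after a gene's start, were matched for CDH2, VIM, FN1, ZEB1 and ZEB2, with 12 windows in all, and not for CDH1, SNAI1, SNAI2, TWIST1 and ESRP1. Capitals mark matches, on either strand, to the general E-box CANNTG, which includes the SNAI and ZEB type CAGGTG or CACCTG, to TGACGTCA (the cyclic AMP response element) and to the CCAAT box (CCAAT or ATTGG). These motifs were chosen after the sequences had been seen. The sequences run 5′ to 3′ on the gene's strand, for FN1 at chr2:215436019-215436318 (minus), the second of 2 CDH2 windows at chr18:28177081-28177380 (minus), ZEB2 at chr2:144520070-144520369 (minus) and the third of 7 ZEB1 windows at chr10:31318966-31319265 (plus).
FN1: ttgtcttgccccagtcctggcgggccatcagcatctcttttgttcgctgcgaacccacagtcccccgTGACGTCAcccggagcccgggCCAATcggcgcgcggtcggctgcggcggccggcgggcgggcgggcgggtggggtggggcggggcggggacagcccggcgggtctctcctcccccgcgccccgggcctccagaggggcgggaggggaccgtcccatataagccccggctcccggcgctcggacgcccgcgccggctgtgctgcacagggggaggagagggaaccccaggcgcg
CDH2: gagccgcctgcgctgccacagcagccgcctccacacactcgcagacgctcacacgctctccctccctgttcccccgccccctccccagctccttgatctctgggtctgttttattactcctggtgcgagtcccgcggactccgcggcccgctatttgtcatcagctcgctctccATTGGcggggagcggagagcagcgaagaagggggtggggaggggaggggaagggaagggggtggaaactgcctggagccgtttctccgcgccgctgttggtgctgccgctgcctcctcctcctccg
ZEB2: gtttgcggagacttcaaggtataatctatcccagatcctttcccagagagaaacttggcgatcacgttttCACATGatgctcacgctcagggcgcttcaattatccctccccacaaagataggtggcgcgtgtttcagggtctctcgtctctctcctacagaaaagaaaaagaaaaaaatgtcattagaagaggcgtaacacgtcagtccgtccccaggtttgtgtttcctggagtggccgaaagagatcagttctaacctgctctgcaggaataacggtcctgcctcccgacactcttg
ZEB1: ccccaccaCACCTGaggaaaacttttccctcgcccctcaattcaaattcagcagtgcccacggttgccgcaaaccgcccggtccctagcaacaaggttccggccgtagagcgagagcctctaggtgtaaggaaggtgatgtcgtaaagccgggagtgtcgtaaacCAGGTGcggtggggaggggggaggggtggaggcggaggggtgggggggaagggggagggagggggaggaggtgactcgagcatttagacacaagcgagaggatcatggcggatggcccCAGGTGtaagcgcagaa
The FN1 window held TGACGTCA at position -183 and CCAAT at -162 from the start and no CANNTG. The CDH2 window shown held ATTGG at -76 and no CANNTG, whereas the other CDH2 window, which was not printed, held the E-box CAGATG at -97 and CCAAT at -67. ZEB2 had a CACATG at -180 in its only window. The ZEB1 window shown, the one of 7 with the most matches to CAGGTG or CACCTG, had CACCTG at -242 and CAGGTG at -85 and 34. Over 35116 RefSeq promoter windows, CANNTG was present in 68.7%, CAGGTG or CACCTG in 20.6%, TGACGTCA in 1.85% and a CCAAT box in 34.6%. Of the 12 windows of these genes, 2 had CAGGTG or CACCTG, both of ZEB1, with 3 matches in the window shown, 1 in another and 0 in the other 5 ZEB1 windows. The matches are a description of the letters and not of binding.

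Levels between genes were compared on the FPKM scale, over all 6 samples. VIM was the most abundant, with a median of 173 FPKM, followed by SNAI1 at 12.6 and FN1 at 8.36 FPKM, and the ranges of these 3 genes did not overlap. CDH2 (median 1.60 FPKM), TWIST1 (1.52) and ZEB1 (1.35) came next, and neighbours in this order overlapped. ZEB2 (0.495 FPKM), CDH1 (0.37), SNAI2 (0.30) and ESRP1 (0.16) were lowest, each overlapping the next. The order of the means was the same when counts were divided by the exon length of GENCODE release 29, but CDH2 was then higher, at a CPM per kilobase (by library total, without TMM) of 2.57 to 4.23, and no longer overlapped TWIST1 at 1.43 to 2.20. LM3 cells therefore held high vimentin and low E-cadherin transcript levels in both groups, beside a mean of 266 FPKM of the epithelial keratin gene KRT18.

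**Figure D3:**
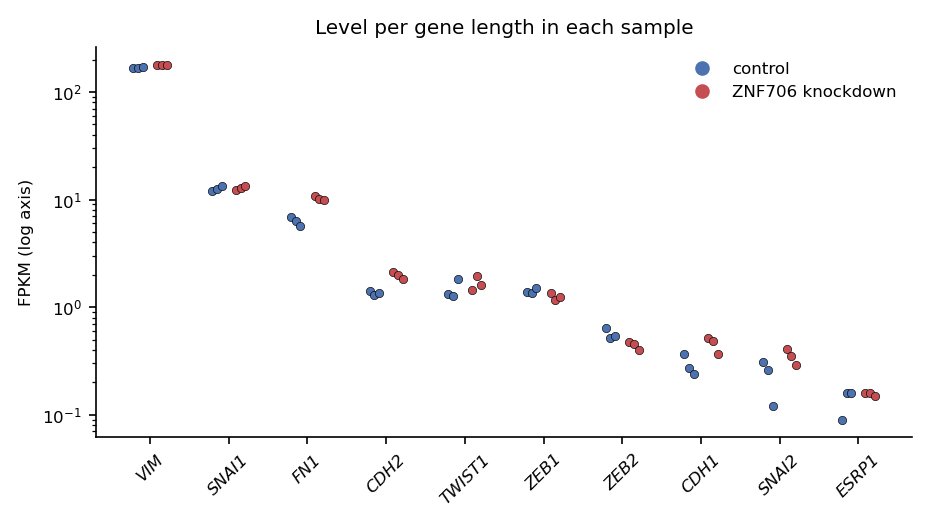
FPKM (log axis) of the 10 EMT genes in each control (blue) and ZNF706 knockdown (red) sample, ordered by level. VIM lies above 166 FPKM in all 6 samples, and ZEB2, CDH1, SNAI2 and ESRP1 lie below 1 FPKM.

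Other genes of the program were taken from 4 lists. Of 40 epithelial junction and surface genes, 35 were tested, of which 11 rose, 3 fell and 21 did not pass (40% called, against 22.8% of all genes). Without both libraries low in ALB, where 15.1% of all genes were called, 10 were higher and 3 lower. Their median log2 fold change was 0.05, and that of all genes was 0.01. With a minimum mean count of 50, 15 of 30 genes of the list were called, against 31.5% of all genes. The largest rises were in genes of cell junctions. PPL, encoding the desmosomal and cornified envelope protein periplakin, rose from 7.61, 8.20 and 5.82 CPM to 16.1, 16.7 and 15.0 CPM (log2 fold change 1.15, SE 0.129). CGN, encoding the tight junction protein cingulin, changed by 1.13 (SE 0.180), and CLDN4, encoding the tight junction protein claudin 4, by 1.08 (SE 0.133). The largest falls were in catenin and adhesion genes. CTNND1, whose product p120-catenin stabilises cadherins at the membrane, fell from 230.4, 216 and 212 CPM to 154, 174 and 151 CPM (log2 fold change -0.46, SE 0.0563). F11R, encoding junctional adhesion molecule A, changed by -0.22 (SE 0.0365), and CTNNA1, encoding alpha-catenin, by -0.14 (SE 0.0270). For these 6 genes the groups did not overlap, and adjusted p by edgeR's quasi-likelihood test lay between 0.00034 and 0.006. With counts scaled by library size alone CTNNA1 was not called (adjusted p = 0.051). The other genes called were TJP3, ST14, AP1M2, CDS1, LLGL2, JUP, SPINT1 and DSP, all higher. KRT18, the most abundant of the list, was at 923, 951 and 1015 CPM against 887, 909 and 899 CPM (log2 fold change -0.10, SE 0.0364, adjusted p = 0.076 by the same test). KRT18 was called lower by DESeq2 (-0.10, adjusted p = 0.023) and without control replicate 1 (-0.13, adjusted p = 0.039 by edgeR).

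Of 45 mesenchymal matrix, adhesion and cytoskeleton genes, 40 were tested, of which 13 rose, 6 fell and 21 did not pass (47.5% called, against 22.8% of all genes). Their median log2 fold change was 0.06, close to that of the epithelial list. With a minimum mean count of 50, 19 of 37 genes of the list were called, against 31.5% of all genes. COL6A2, encoding a chain of collagen VI, rose from 13.4, 9.88 and 10.8 CPM to 22.9, 22.2 and 23.4 CPM (log2 fold change 1.01, SE 0.111). The groups were well apart, and COL6A1, encoding another chain of the same collagen, changed by 0.86 (SE 0.0544). TAGLN, encoding the actin-binding protein transgelin, fell from 19.1, 16.7 and 16.1 CPM to 10.99, 10.5 and 14.0 CPM (log2 fold change -0.54, SE 0.124). CCN1, encoding a matricellular protein, changed by -0.27 (SE 0.0745), and SPARC, encoding the matricellular protein osteonectin, by -0.24 (SE 0.0334). For these 5 genes the groups did not overlap, and adjusted p by edgeR's quasi-likelihood test lay between 2.5e-05 and 0.025. TAGLN was not called without knockdown replicate 2 (adjusted p = 0.054), and CCN1 lost its call with library size alone (-0.22, adjusted p = 0.063 by edgeR), in 4 of the 6 fits with a sample left out (the highest adjusted p was 0.093, without knockdown replicate 2) and without both libraries low in ALB (-0.29, adjusted p = 0.091 by edgeR). S100A4, the most abundant of the list, was at 153, 165 and 184 CPM against 126, 139 and 167 CPM, with overlapping groups (log2 fold change -0.22, SE 0.0970, adjusted p = 0.15 by edgeR's quasi-likelihood test). It was called without knockdown replicate 3 (-0.34, adjusted p = 0.017) and without both libraries low in ALB (-0.40, adjusted p = 0.0099 by edgeR).

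Several genes of this list also mark fibroblasts. Of 9 fibroblast and stellate cell markers, 7 were tested and 4 rose (PDGFRB, COL1A1, THY1 and RGS5), or 57.1%, against 10.4% of all genes called higher. The other 3 did not pass, with log2 fold changes of -0.04 for DCN, -1.26 for LUM and -2.04 for COL3A1. COL3A1 had 336, 0 and 48 counts in the controls and 42, 61 and 0 in the knockdown samples, with no order by group. Their summed level was 108, 95.8 and 101 CPM in the controls and 120, 119 and 122 CPM in the knockdown samples, so that it lay higher in every knockdown sample. Most of this sum was COL1A1, the most abundant of the list at a mean of 7.73 FPKM, which was at 72.8, 73.3 and 75.2 CPM in the controls and at 85.5, 85.3 and 84.0 CPM in the knockdown samples. PDGFRA and COL1A2 had too few counts to be tested. In RNA from bulk cultures, a change in the number of cells of a kind and a change in the RNA per cell cannot be told apart.

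**Figure D4:**
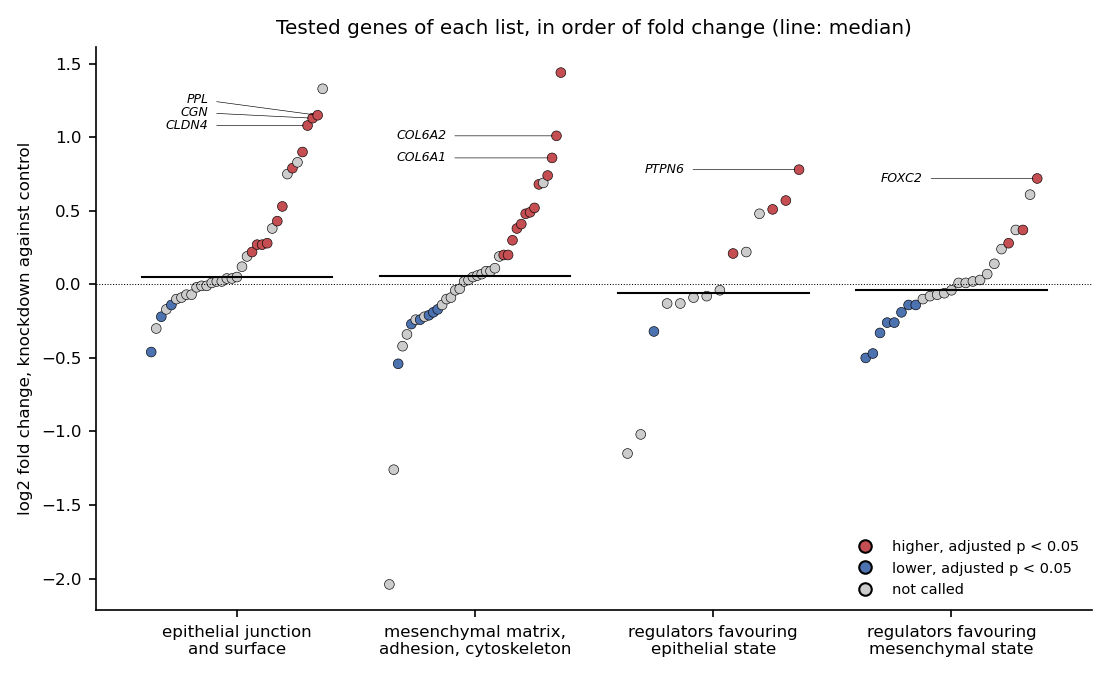
Log2 fold change, knockdown against control, of the tested genes of the 4 EMT lists, each point a gene in order of its fold change, with a line at the list's median. Genes called higher (red) and lower (blue) at an adjusted p below 0.05 occur in every list, and the medians lie between -0.06 and 0.06.

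Regulators that favour the mesenchymal state moved in both directions. Of 28 listed, 25 were tested, of which 3 rose, 8 fell and 14 did not pass (44% called, against 22.8% of all genes), and their median log2 fold change was -0.04. With a minimum mean count of 50, 11 of 23 genes of the list were called, against 31.5% of all genes. GSC and KLF8 were not analysed here, and PRRX1 had too few counts. WWTR1, encoding the Hippo pathway co-activator TAZ, fell from 109.1, 108.9 and 105 CPM to 74.5, 76.2 and 77.1 CPM (log2 fold change -0.50, SE 0.0352). ID1, an inhibitor of basic helix-loop-helix factors and the most abundant of the list at 64.3 FPKM, changed by -0.47 (SE 0.0379), and ETS1, an ETS family factor, by -0.33 (SE 0.0365). SMAD4, MBNL1, QKI, TGFBR2 and YAP1 also fell. FOXC2, a forkhead factor, rose from 7.04, 5.57 and 5.47 CPM to 9.94, 9.91 and 9.90 CPM (log2 fold change 0.72, SE 0.121). TGFB1, the ligand that is best known as an inducer of EMT, changed by 0.37 (SE 0.0617) and its receptor gene TGFBR1 by 0.28 (SE 0.0362). For the 6 genes with values the groups did not overlap, and adjusted p by edgeR's quasi-likelihood test lay between 4.2e-05 and 0.0026. With counts scaled by library size alone, 3 of the list were higher and 6 lower, and without both libraries low in ALB, where 15.1% of all genes were called, 4 were higher and 6 lower.

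Regulators that favour the epithelial state were in part near the limit of detection. Of 23 listed, 14 were tested, of which 4 rose, 1 fell and 9 did not pass (35.7% called, against 22.8% of all genes), and their median log2 fold change was -0.06. With a minimum mean count of 50, 5 of 11 genes of the list were called, against 31.5% of all genes. GRHL2, which maintains epithelial gene expression and represses ZEB1, had 0 counts in 5 samples and 4 in knockdown replicate 3, and MIR200CHG, the host of a microRNA-200 cluster, had 0 counts in all 6 samples, which allows up to 3 counts per sample by counting error alone. GRHL3, OVOL1, OVOL2, FOXA3, CDX2 and BMP7 were among the others with too few counts to be tested. PTPN6, encoding the phosphatase SHP-1, was at 2.07, 1.57 and 2.22 CPM in the controls and at 2.78, 3.34 and 3.94 CPM in the knockdown samples (log2 fold change 0.78, SE 0.204, adjusted p = 0.022 by edgeR's quasi-likelihood test). Its call was lost without control replicate 2 (0.65, adjusted p = 0.075), without knockdown replicate 2 (0.79, adjusted p = 0.066) and without knockdown replicate 3 (0.65, adjusted p = 0.082), with no filter on low counts (0.78, adjusted p = 0.064) and without both libraries low in ALB (0.69, adjusted p = 0.11 by edgeR). ELF3, an epithelial ETS factor, rose by 0.57 on the log2 scale (SE 0.0927, adjusted p = 0.0022 by edgeR's quasi-likelihood test), and SMAD7, an inhibitor of TGF-beta signalling, by 0.51 (SE 0.114, adjusted p = 0.01 by the same test). KLF4 was the other gene that rose. Without both libraries low in ALB, without knockdown replicate 2 and with no filter, 2 of the list were higher and 1 lower, in fits that called 15.1%, 13.9% and 9.55% of all genes. KLF5, a Krüppel-like factor of epithelia and the most abundant of the list at 34.0 FPKM, fell from 158, 162 and 156 CPM to 126, 129 and 126 CPM (log2 fold change -0.32, SE 0.0338, adjusted p = 0.00024 by edgeR's quasi-likelihood test).

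**Figure D5:**
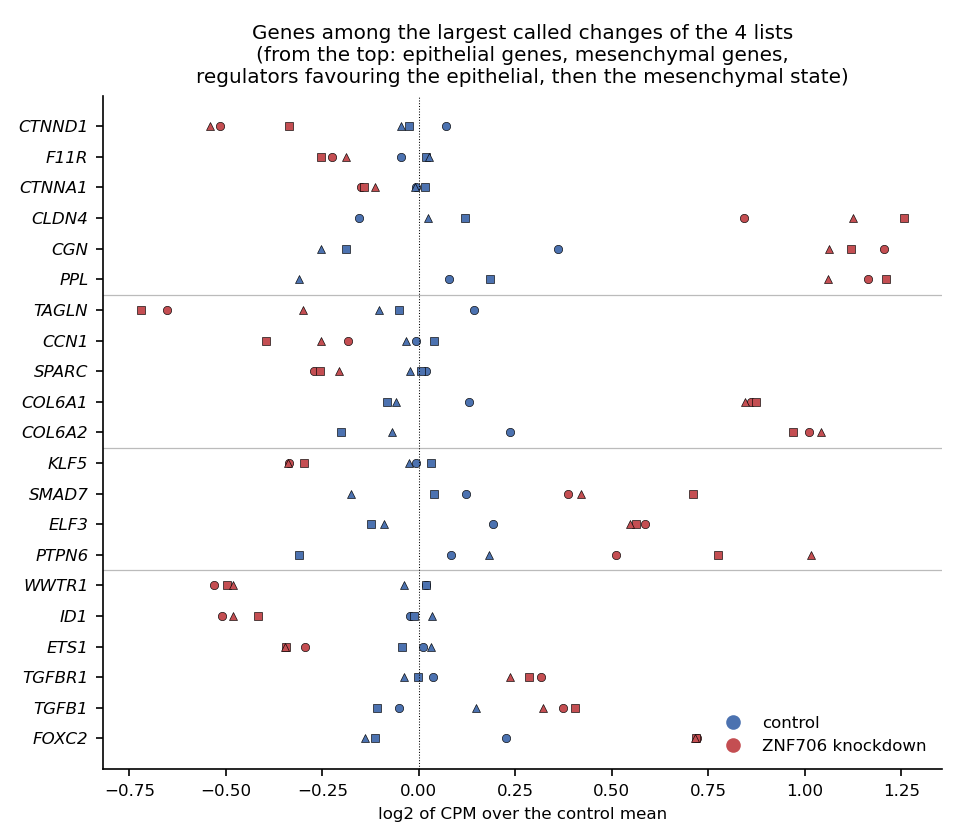
Log2 of the CPM value over the control mean in each control (blue) and ZNF706 knockdown (red) sample for genes among the largest called changes of the 4 lists (circles, squares and triangles are replicates 1, 2 and 3). The samples of the 2 groups do not overlap for any gene shown, which the choice of these genes required, and PPL, CGN and CLDN4 lie farthest to the right.

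The genes with the closest pattern to each called EMT gene were sought among 14125 genes, by the root mean square difference of log2 CPM values centred on each gene's mean over the 6 samples. For CDH2 these were ZNF480 (0.028) and THBS1 (0.034), for FN1 NLGN2 (0.029) and PLPP6 (0.039), and for ZEB2 ABCC3 (0.043) and KIAA2026 (0.045). THBS1 encodes thrombospondin 1, a matricellular protein, and ABCC3 encodes an organic anion transporter.

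Some of the 10 genes overlap others in the deposited annotation, and whether the counting used strand is not given in the sources used here. VIM overlaps VIM-AS1 on the opposite strand, with 72 to 128 counts per sample, which is small beside the 61690 to 72252 counts of VIM. ZEB1 overlaps ZEB1-AS1, with 56, 36 and 35 counts in the controls and 119, 104 and 85 in the knockdown samples, so that the antisense gene had more counts in every knockdown sample than in any control. Reads of these partners cannot be told apart without strand. The overlapping genes of CDH1, CDH2, ZEB2 and TWIST1 had at most 7 counts in any sample, and SPTLC1P1, which lies within ZEB1, had at most 33.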

How the data were processed

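RNA-seq of 6 LM3 samples, 3 vector control and 3 ZNF706 knockdown, was analysed. The submitters' processing notes name cutadapt 1.9, FastQC and GRCh38, and the study's methods name HISAT2 for mapping. The authors deposited raw counts per gene, without normalization, and FPKM values, which are relative to each gene's length and each library's total. The counting program, its use of strand and the annotation release are not given in the sources used here. Of 32092 genes shared with GENCODE release 29, 99.98% overlapped their GRCh38 position there. The table also holds gene ontology and pathway terms, which were not used.

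Low genes were removed with filterByExpr, libraries were scaled by TMM, and the quasi-likelihood functions glmQLFit and glmQLFTest (edgeR 4.0.16, R 4.3.3) were run with group as the only term. SE was obtained from the fold change and its F statistic. Fold values are 2 to the power of the log2 fold change of the fit. Exact permutation tests were two-sided. FPKM values served for levels between genes and for limma 3.58.1. The EMT genes, lists and tests were chosen with earlier results of these data known. Named were ZNF706, the 10 EMT genes, up to 3 largest rises and 3 largest falls of each of 4 lists among called genes without overlap, the gene of each list with the highest mean FPKM, and the 2 genes most like each called EMT gene. Some results under this rule are not reported here. Other list genes were named after their values were seen. Motifs were searched on both strands.

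Tested on simulated counts, the fit called 75% of 100 genes changed by 1 on the log2 scale, 63% of 100 changed by 0.6, and 9 of 18029 unchanged genes. Far fewer genes were changed there than the 22.8% called in the data, so these shares may differ from those of the real fit. The chi-square value per gene between samples of a group was at least 12.8, so no sample was a copy of another. Alternatives were DESeq2 1.42.0, its size factors in edgeR, library size alone, no filter, a minimum mean count of 50, a replicate block, each sample left out, limma-trend on log2(FPKM + 0.1) and log2(FPKM + 1) where the mean FPKM reached 1 and, added after seeing the data, leaving out control replicate 1 and knockdown replicate 3 together.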

Additional observations from a re-analysis of the deposited data

How the results depend on the processing

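The fold changes of ZNF706, CDH2 and FN1 kept their direction and their call in all 15 alternatives. SNAI1, SNAI2, ZEB1, TWIST1 and ESRP1 were called in none in which they were tested. Replicate numbers did not pair the samples (correlations of same-numbered deviations 0.03, -0.03 and 0.03). With the replicate block 4361 genes were called and CDH1, S100A4 and KRT18 passed (0.60, -0.22 and -0.10, adjusted p = 0.046, 0.0049 and 0.039 by edgeR).

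Over all genes, 4192 were called, of which 1906 were higher and 2286 lower. With library size alone this became 2742 and 1518, and 64.4% of calls were higher in place of 45.5%. With limma-trend 59.7% were higher. With a sample left out the calls ranged from 2648 (without knockdown replicate 2) to 3424. By the study's thresholds 2848 genes passed, and 1877 by limma-trend on log2(FPKM + 0.1) and 1278 on log2(FPKM + 1). The larger pseudocount shrinks the fold changes of low genes. The 5 calls among epithelial regulators became 3 with no filter and 3 without both libraries low in ALB, and ranged from 3 to 5 with a sample left out.

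CDH1 ranged from 0.48 to 0.78 with a sample left out and was 0.91 without both libraries. ZEB2 ranged from -0.48 to -0.33 and was -0.26 without both. VIM was 0.09 with library size alone and with limma-trend at both pseudocounts. SNAI1 turned to 0.02 with library size alone, without control replicate 3 and with limma-trend at both pseudocounts, and ranged from -0.07 to 0.02 with a sample left out. TWIST1 ranged from -0.01 (without knockdown replicate 2) to 0.31, and ESRP1 from -0.05 (without control replicate 1) to 0.29 and was 0 without both libraries. Except where a sample, filter or scaling itself is named, the cause was not tested. CDH1, SNAI2 and ESRP1 had 28 to 252 counts per sample, and their intervals were the widest of the 10 genes.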

Other observations

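Of 13 hepatocyte and HCC markers, all tested, 3 fell and none rose, with a median log2 fold change of -0.70. The 3 calls are 23.1% of the list, near the 22.8% of all genes called. SERPINA1, encoding alpha-1 antitrypsin, had 195, 286 and 336 counts in the controls and 116, 75 and 138 in the knockdown samples (log2 fold change -1.47, adjusted p = 0.0034 by edgeR's quasi-likelihood test). APOB and APOH, encoding apolipoproteins, were the other genes that fell (-0.98 and -2.32), and APOH had at most 54 counts in any sample. KRT8 did not pass (0.01, adjusted p = 0.93 by edgeR). GPC3 had 6, 122 and 166 counts in the controls and 127, 101 and 0 in the knockdown samples, and TF had 37, 361 and 375 against 234, 213 and 24, so that both followed the pattern of ALB and AFP over the libraries.

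KRT7, a keratin of bile duct epithelium, was the most abundant cholangiocyte and progenitor marker, at a mean of 294 FPKM, and fell from 1571, 1586 and 1533 CPM to 1109, 1116 and 1145 CPM (log2 fold change -0.48, adjusted p = 1.5e-05 by edgeR). It was the only gene called of the 5 tested in its list of 6, or 20%, near the 22.8% of all genes. KRT19 (0.83, adjusted p = 0.054 by edgeR) and SOX9 (-0.95, adjusted p = 0.06 by edgeR) had groups that did not overlap and opposite signs, and SPP1 had a log2 fold change of -0.80 with overlapping groups. EPCAM, of the same list and of the epithelial one, had 8, 34 and 29 counts in the controls and 51, 74 and 6 in the knockdown samples. CDH5, encoding VE-cadherin, was at 8.66, 8.70 and 9.14 CPM in the controls and at 5.09, 5.46 and 5.72 CPM in the knockdown samples (log2 fold change -0.70, adjusted p = 0.0014 by edgeR), while the endothelial markers VWF, TEK and ERG had at most 20 counts in any sample. PECAM1, the other endothelial marker tested, did not pass (log2 fold change 0.15, adjusted p = 0.54 by edgeR). Thus 50% of the endothelial markers tested were called, a list of only 2 genes, against 22.8% of all genes. CD68, encoding a lysosomal protein of macrophages, rose from 26.5, 26.0 and 27.2 CPM to 40.3, 43.8 and 40.1 CPM (log2 fold change 0.64, adjusted p = 0.00011 by edgeR). It was the only gene called of 3 immune markers tested, or 33.3%, against 22.8% of all genes. LYZ (-1.71, adjusted p = 0.21 by edgeR) and CD14 (0.69, adjusted p = 0.51 by edgeR) did not pass, and the leukocyte marker PTPRC had at most 8 counts in any sample.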
